A study of Mus musculus with 2 samples.

Results

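IgG1 B cells of mouse Peyer's patches were taken as the cell barcodes with exactly 1 productive heavy chain whose constant gene was IGHG1. There were 77 such cells among 6241 cells with exactly 1 productive heavy chain. Of these, 55 came from the Cre+ library, which held 3294 cells, and 22 from the Cre- library, which held 2947 cells. A set of cells that joined IGHV1-9 to IGHJ2 made up 27 of the 55 Cre+ IgG1 cells and none of the 22 Cre- ones. Values are therefore given with and without that set, which leaves 50 IgG1 cells, 28 in the Cre+ library and 22 in the Cre- library.

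The Cre+ mice were H2-Ab1 fl/fl and carried Villin:Cre, so that the floxed H2-Ab1 gene, which encodes a chain of MHC class II, is removed where the Villin promoter is active, in intestinal epithelium. The Cre- mice were H2-Ab1 fl/fl without the recombinase. Cells enriched for CD45 from 4 adult female mice per genotype were pooled into 1 library per genotype, so mice cannot be told apart and no difference between libraries has a replicate check or a test. The genotypes follow the sample labels, although the design text writes Cre- for both, and without a measurement of H2-Ab1 they could not be checked.

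IgG1 is made when an activated B cell joins its rearranged V, D and J segments to the IGHG1 constant gene in place of IGHM. In mice this switch is favoured by T cell help and IL-4, and in Peyer's patches it is a minor route beside the switch to IgA. Cells that descend from a single B cell share the heavy-chain CDR3, the stretch across the V-D-J joint that contacts antigen, apart from point mutations added in germinal centres. On GRCm38, Ighg1 lies at chr12:113326541-113330523, between Ighg3 at chr12:113357442-113361232 and Ighg2b at chr12:113304314-113307933.

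The largest group of related IgG1 cells was the IGHV1-9 with IGHJ2 set of the Cre+ library. Ighv1-9 lies at chr12:114583569-114583862. Its heavy CDR3 spans 42 bases (14 residues) and was assigned to IGHD1-1. It occurred in 6 versions over 40 barcodes, printed here because they show how the set divides. Positions count from 1 at the 5′ end of the CDR3, which starts with the codon of the conserved cysteine, and capitals mark bases that differ from variant 1.
heavy variant 1: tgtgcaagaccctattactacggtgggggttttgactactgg
heavy variant 2: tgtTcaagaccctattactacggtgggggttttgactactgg
heavy variant 3: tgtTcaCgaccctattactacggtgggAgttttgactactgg
heavy variant 4: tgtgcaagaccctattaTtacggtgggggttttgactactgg
heavy variant 5: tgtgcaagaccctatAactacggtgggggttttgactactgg
heavy variant 6: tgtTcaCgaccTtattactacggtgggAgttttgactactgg

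Variant 1 was found in 21 barcodes and variant 2 in 11. Variant 2 differs by G4T, which changes residue 2 from alanine to serine (A2S). Variant 3, in 4 barcodes, carries G4T together with A7C and G28A, and its protein differs by A2S and G10S. Variant 6, in 1 barcode, holds the 3 changes of variant 3 plus the silent C12T. Variant 4, in 2 barcodes, has only the silent C18T, and variant 5, in 1 barcode, has T16A and the protein change Y6N. G4T was thus shared by variants 2, 3 and 6, while A7C and G28A were found together in variants 3 and 6.

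The light chain of the set was kappa, with IGKV1-110 (Igkv1-110, chr6:68270527-68271265) joined to IGKJ4. It came in 2 versions, and capitals mark the bases of the second that differ from the first.
kappa variant 1: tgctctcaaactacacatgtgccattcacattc
kappa variant 2: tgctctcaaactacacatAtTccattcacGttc

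Kappa variant 2 differs by G19A, G21T and A30G, and by V7I in the protein. All 5 barcodes with heavy variant 3 or 6 carried kappa variant 2. All 34 barcodes with heavy variant 1, 2, 4 or 5 and an IGKV1-110 chain carried kappa variant 1, and 1 barcode with heavy variant 1 had no IGKV1-110 chain. The light chain, which is assembled as a separate contig, thus set heavy variants 3 and 6 apart from the others. It did not divide variant 2, which shares G4T with variants 3 and 6, from variant 1. The plot of barcodes by heavy CDR3 variant shows the way each barcode entered the counts.

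**Figure D1:**
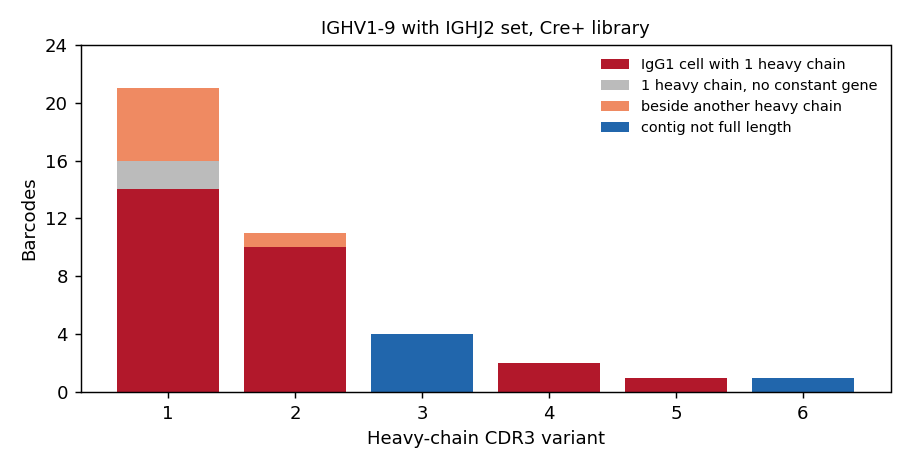
Barcodes of the Cre+ library (y axis) that carry each heavy CDR3 variant of the IGHV1-9 with IGHJ2 set (x axis), coloured by how the heavy chain entered the counts. Variants 1 and 2, in 21 and 11 barcodes, hold most of the set, and variants 3 and 6 appear only in contigs that are not full length.

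The count of 27 IgG1 cells took in only part of this set. Of the 40 barcodes, 27 had a single productive heavy chain with IGHG1, 2 had a single heavy chain with no constant gene called, and 6 carried the chain beside another productive heavy chain. The remaining 5, all those with variant 3 or 6, had contigs flagged as not full length and so without a call of productivity, and had 12 to 41 heavy-chain UMIs (unique molecular identifiers, each counting 1 captured transcript), against 2 to 45 in the 27 counted cells. One of these 5 barcodes sat beside a productive IgA heavy chain. IGHG1 was the constant gene in 38 of the 40 contigs, and none of the 40 was IgM, IgD or IgA.

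Within the 27 counted cells, heavy variants 1 and 2 had similar heavy-chain UMIs. The 14 cells with variant 1 had a median of 19.5 (range 2 to 36), and the 10 cells with variant 2 a median of 16.5 (range 3 to 45). The set had IGKV1-110 as its main light chain in 26 of the 27 cells. The remaining cell held 58 UMIs of an IGKV6-15 chain beside 39 UMIs of IGKV1-110. In all, 10 barcodes occurred in both libraries, 1 of them an IgG1 cell of this set with 3 heavy-chain and 4 light-chain UMIs in the Cre+ library, and its heavy CDR3 was not found under that barcode in the Cre- library.

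Over all cells with a constant gene called, IgG1 was carried by 1.68% in the Cre+ library (55 of 3276) and 0.749% in the Cre- library (22 of 2937), a difference of 0.930 percentage points (95% interval 0.368 to 1.5). Intervals of shares are exact (Clopper-Pearson), and those of differences combine the exact intervals. All cover counting error only, and cells of 1 lineage are not independent. Without IGHV1-9 plus IGHJ2 cells the shares were 0.871% in the Cre+ library (28 of 3216, 0.579 to 1.26) and 0.754% in the Cre- library (22 of 2917, 0.473 to 1.14). The difference was then 0.116 points (-0.367 to 0.593), with an interval that includes 0. IgG2b, the more frequent IgG class, was at 3.05% of Cre+ cells (100 cells) and 3.17% of Cre- cells (93 cells).

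Among IgG cells, IgG1 took 34.8% in the Cre+ library (55 of 158, 27.4 to 42.8) and 19.1% in the Cre- library (22 of 115, 12.4 to 27.5). Without the set these became 21.5% (28 of 130) and 19.5% (22 of 113), and the difference was 2.07 points (-8.78 to 12.6). Among all switched cells IgG1 took 15.1% of Cre+ and 3.27% of Cre- cells. Without the set the shares were 8.33% of Cre+ (28 of 336) and 3.28% of Cre- cells, a difference of 5.05 points (1.87 to 8.74) in place of 11.8. A large IgA lineage is part of the Cre- total. When the largest lineage was left out on both sides, with the IGHV1-9 with IGHJ2 cells kept, the Cre+ value was 17.4% (54 of 311, 13.3 to 22). The Cre- value was then 8.59% (22 of 256, 5.46 to 12.7). The share with both the set and the largest lineages left out was not computed, so an excess among switched cells beyond these groups was not tested.

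**Figure D2:**
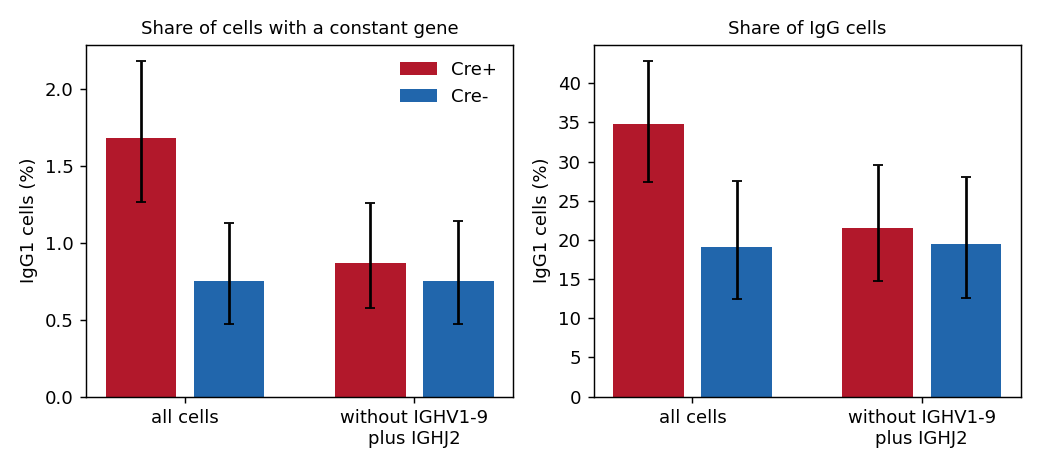
IgG1 cells as a percentage of cells with a constant gene called (left) and of IgG cells (right), Cre+ in red and Cre- in blue, for all cells and without IGHV1-9 plus IGHJ2 cells. Error bars are exact 95% intervals that cover counting error; the shares of 1.68% and 0.749% over all cells become 0.871% and 0.754% without the set.

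Outside the IGHV1-9 with IGHJ2 set, the most used heavy V gene of IgG1 cells in the Cre+ library was IGHV1-12 (Ighv1-12, chr12:114615850-114616143), with 9 of the 28 remaining cells or 32.1% (15.9 to 52.4). It was found in 0 of 22 IgG1 cells of the Cre- library, where a count of 0 allows up to 13.6%. In the Cre+ library the gene was carried by 1.24% of unswitched cells, 2% of IgG2b cells and 7.14% of IgA cells outside the largest lineage. The share in the 28 IgG1 cells was above that in those IgA cells by 25 points (7.90 to 45.5) and above that in unswitched cells by 30.9 points (14.6 to 51.1). Over all 55 Cre+ IgG1 cells IGHV1-12 was at 16.4%, above unswitched cells by 15.1 points (6.52 to 27.6), and the difference of 9.22 points from those IgA cells had an interval that includes 0 (-0.868 to 22.1). IGHV1-12 was picked as the most used gene of these same cells, so some excess over other classes follows from the choice. The intervals are therefore no test of an excess, and they treat related cells as independent. The 9 IgG1 cells with IGHV1-12 belonged to 4 lineages. A lineage is a set of cells of 1 library with the same IGHV and IGHJ gene and CDR3 length. Its cells are joined at 85% or more identity of CDR3 bases.

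The 3 IGHV1-12 lineages with 2 or more IgG1 cells are shown by their CDR3, since 2 of them resemble each other and 2 of them hold IgA cells. Both IGHJ3 contigs not full length lie outside the lineage and the IgG1 counts. Capitals mark differences from the first sequence with the same J gene, and the IGHJ4 chains are set against their own first sequence.
IGHJ2 lineage, IgG1 and IgA: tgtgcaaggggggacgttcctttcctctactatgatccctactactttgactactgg
IGHJ2 lineage, IgG1: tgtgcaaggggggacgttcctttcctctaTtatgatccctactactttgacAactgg
IGHJ3 lineage, IgG1: tgtgcaagagaggggtttgcttactgg
IGHJ3 contig not full length, IGHG1: tgtAcaagagaggggtttgTttactgg
IGHJ3 contig not full length, IGHG1: tgtgcaagagagggCtttgcttactgg
IGHJ3 lineage, IgA: tgtgTaagagaggggtttgGttGctgg
IGHJ3 lineage, IgA: tgtgTTagagaggggtttgcttactgg
IGHJ4 lineage, IgG1: tgtgcaagagaggggatgaattactgg
IGHJ4 lineage, IgG1: tgtgcaagagaAgggatgGaCtactgg

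The IGHV1-12 with IGHJ2 lineage had a CDR3 of 19 residues and 6 cells, 3 IgG1, 2 IgA and 1 IgM. Its first CDR3 was identical, base for base, in 2 IgG1 and 2 IgA cells, and a further IgG1 cell differed by C30T and T52A (Y18N). IGKV13-84 was the light V gene of 5 of the 6 cells, and 1 IgG1 cell with 3 heavy-chain UMIs had no light chain. This lineage thus held IgM, IgG1 and IgA cells with a common heavy and light chain.

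The IGHV1-12 lineages with IGHJ3 and IGHJ4 both had a CDR3 of 9 residues and the light gene IGKV5-43 (Igkv5-43, chr6:69823355-69823911) in their IgG1 cells. The IGHJ4 lineage had 3 IgG1 cells, with 8, 14 and 24 heavy-chain UMIs, and a further barcode carried the chain beside another heavy chain. Its second CDR3 differs from its first by G12A, A19G and T21C (N7D). The IGHJ3 lineage had 2 counted IgG1 cells with identical CDR3s and 35 and 57 heavy-chain UMIs. Another 2 barcodes, with 13 and 58 UMIs, held an IGHJ3 chain of this type and IGKV5-43 in contigs flagged as not full length. The IGHJ3 and IGHJ4 CDR3s differed from each other at 4 to 6 of 27 bases, and a heavy chain keeps the J gene of its rearrangement.

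The 2 IgA cells that the CDR3 rule joined to the IGHJ3 lineage had IGKV4-57 and not IGKV5-43, so their heavy chains were similar but their light chains were not. In all, 5 of the 8 IGHV1-12 IgG1 cells with a light chain used IGKV5-43. The same pair of genes was found in 1 of 48 other IGHV1-12 cells of the Cre+ library and in 0 of 20 IGHV1-12 cells of the Cre- library, all with a light chain, which allows up to 15%.

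The remaining lineages of the Cre+ library were small. A pair of IgG1 cells used IGHV2-9-1, IGHJ1 and IGKV4-55, with CDR3s that differed by A19G and G23A. An IgG1 and an IgG2b cell with IGHV1-72, IGHJ2 and IGKV5-39 differed at 1 base of the CDR3, shown here with the differing base in context; capitals mark differences from an IgA cell of the same lineage that had another light chain, IGKV8-28.
IGHV1-72 lineage, IgA: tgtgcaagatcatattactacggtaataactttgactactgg
IGHV1-72 lineage, IgG2b: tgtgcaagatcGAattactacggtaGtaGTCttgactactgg
IGHV1-72 lineage, IgG1: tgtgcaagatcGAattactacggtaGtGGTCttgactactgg

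The IgA cell differed from the IgG1 cell at 7 of 42 bases, so in this lineage the heavy and light chains set the IgG1 and IgG2b cells together and the IgA cell apart. In the IGHV1-59 with IGHJ3 lineage an IgG1 and an IgG2b cell differed by C34G but had different light V genes, IGKV8-28 and IGKV8-19. In the IGHV1-26 with IGHJ4 and the IGHV1-81 with IGHJ2 lineages the IgG1 cell was joined to IgM or IgD cells that each differed from it at 4 bases and had other light V genes. The single IgG1 cell of the 64-cell IGHV5-17 with IGHJ4 lineage, which held 53 IgA cells, had 6 heavy-chain UMIs and both an IGKV4-72 chain (10 UMIs) and an IGKV1-110 chain (4 UMIs). Of the 63 other cells of that lineage, 47 also had IGKV4-72 as their main light V gene.

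In the Cre- library the largest group of IgG1 cells used IGHV1-55 (Ighv1-55, chr12:115208137-115208527), IGHJ2, IGHD2-3 and IGKV1-117. Its 3 cells, with 6 to 16 heavy-chain UMIs, had 3 different CDR3s, in which A16G was shared by cells 2 and 3 and C45T was found in cell 3. The sequences are shown because they differ in single steps.
IGHV1-55 lineage, cell 1: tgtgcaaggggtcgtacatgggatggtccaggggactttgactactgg
IGHV1-55 lineage, cell 2: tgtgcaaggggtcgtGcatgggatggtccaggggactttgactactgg
IGHV1-55 lineage, cell 3: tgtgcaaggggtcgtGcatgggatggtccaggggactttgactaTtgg

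IGHV1-55 was used by 1 of 55 IgG1 cells of the Cre+ library and by 4 of 22 of the Cre- library, 3 of these 4 being this lineage. A pair of Cre- IgG1 cells with IGHV10-1, IGHJ4 and IGKV14-100 differed by C24T. Another pair with IGHV1-61 and IGHJ1 had identical CDR3s but different main light chains, IGKV17-127 with 206 UMIs in one and IGKV5-43 with 1 UMI in the other. An IgG1 and an IgM cell with IGHV1-18, IGHJ2 and IGKV2-109 had identical heavy CDR3s. The IGHV5-6 and IGHV5-9-1 lineages joined an IgG1 cell to an IgM cell at 5 and 6 differing bases; the IGHV5-6 pair had different light V genes, and the IGHV5-9-1 IgG1 cell had no light chain and 1 heavy-chain UMI.

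**Figure D3:**
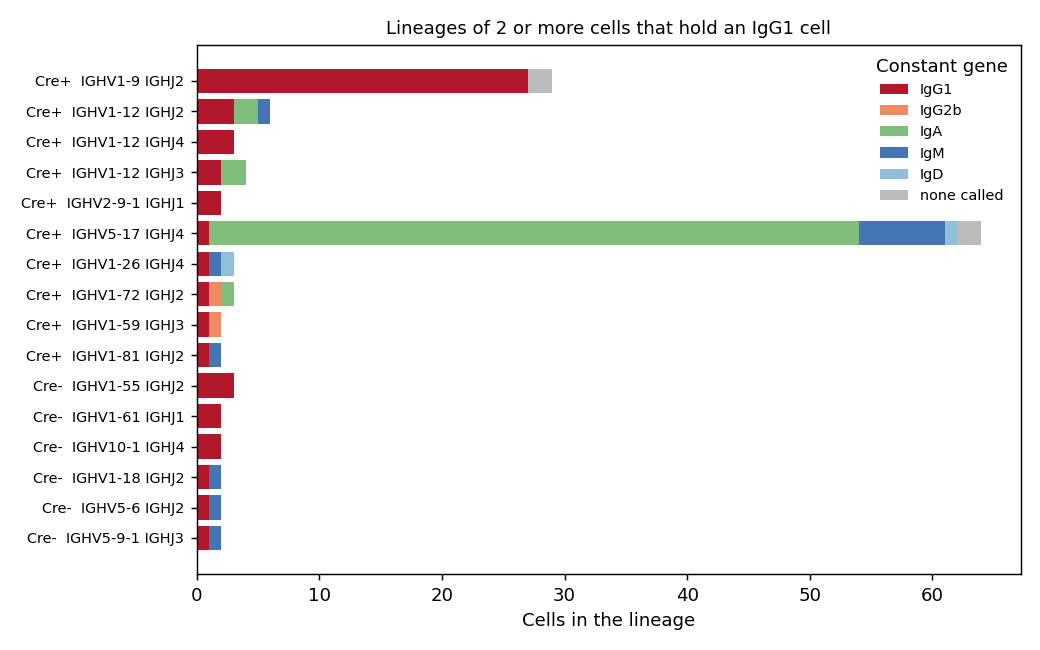
Cells (x axis) in each lineage of 2 or more cells that holds an IgG1 cell, Cre+ lineages above Cre- lineages, coloured by constant gene. The IGHV1-9 with IGHJ2 lineage holds 27 IgG1 cells, no other lineage holds more than 3, and IgA cells occur in 4 of the 10 Cre+ lineages shown.

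The IgG1 cells fell into 23 lineages in the Cre+ library and 18 in the Cre- library, and 5 and 3 of these held 2 or more IgG1 cells. When 22 IgG1 cells are drawn from the Cre+ library, 11.1 lineages are expected, against 18 in the Cre- library. Without the IGHV1-9 with IGHJ2 set, 18.1 lineages are expected from 22 Cre+ cells, close to the 18 of the Cre- library. Cells of another class were joined to IgG1 cells in 7 Cre+ lineages and 3 Cre- lineages. These joins included IgA in 4 Cre+ lineages and in 0 Cre- lineages, IgG2b in 2 and 0, and IgM or IgD in 4 and 3. Other cells with the same light V gene as an IgG1 cell, the stricter sign of common descent, were present in 4 Cre+ lineages, of which 1 was the IGHV1-9 with IGHJ2 lineage with its 2 cells of no called class, and in 1 Cre- lineage.

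IgG1 cells were more often in lineages of 2 or more cells than IgG2b cells. The shares were 76.4% of IgG1 cells in the Cre+ library (42 of 55) and 45.5% in the Cre- library (10 of 22), a difference of 30.9 points (4.87 to 54.4). Without the set the Cre+ share was 53.6% (15 of 28) and the difference 8.12 points (-21.7 to 36.4). IgG2b cells were in such lineages in 21.0% and 19.4% of cases, unswitched cells in 5.15% and 4.06%, in the Cre+ and Cre- library. The share in IgG1 cells outside the set exceeded that in IgG2b cells by 32.6 points in the Cre+ library (10.8 to 52.9) and by 26.1 points in the Cre- library (2.99 to 49.6). IgA cells outside the largest lineage were in such lineages in 39.6% of Cre+ and 27% of Cre- cases, and the differences of IgG1 cells outside the set from them, 14.0 points (-7.37 to 34.4) and 18.5 points (-4.07 to 41.9), had intervals that include 0. With a common light V gene required of all members, the share was 67.3% of Cre+ IgG1 cells, 39.3% without the set, and 27.3% of Cre- IgG1 cells, beside 14% and 17.2% of IgG2b cells. As a measure of chance joining, 2 of 55 Cre+ and 1 of 22 Cre- IgG1 cells would have joined a cell of the other library under the same rule, none with the same light V gene. Without the set the Cre+ count was 2 of 28 cells, or 7.14% (0.877 to 23.5). By the clonotypes in the authors' deposited tables, 29 of 55 Cre+ IgG1 cells were in clonotypes of 2 or more barcodes, and 0 of 22 Cre- IgG1 cells were, which allows up to 13.6%.

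Point mutations were measured within the CDR3 alone. A cell was scored when the 9 bases before the last CDR3 codon differed from those that most unswitched cells with the same IGHJ gene have, and trimming of J at the joint also gives such mismatches. A mismatch was found in 16.4% of IgG1 cells of the Cre+ library (9 of 55) and 45.5% of the Cre- library (10 of 22), a difference of -29.1 points (-53.0 to -4.62). The IGHV1-9 with IGHJ2 cells had 0 of 27. They have the same bases at this end of the CDR3, so they are not 27 independent observations and no limit is given. Without them the Cre+ share was 32.1% (9 of 28, 15.9 to 52.4) and the difference -13.3 points (-40.9 to 15.9). Unswitched cells had 15.4% (Cre+) and 15.3% (Cre-), and IgG2b cells 31.0% and 40.9%. Over all J genes, IgG1 cells outside the set exceeded unswitched cells by 16.8 points in the Cre+ library (0.431 to 37.0). In the Cre- library the excess was 30.2 points (9.05 to 52.6), and in both the intervals against IgG2b cells include 0. The background differed by J gene, with 29.1% of IGHJ2, 15.2% of IGHJ3, 3.68% of IGHJ1 and 3.57% of IGHJ4 unswitched Cre+ cells. Within each J gene the intervals of Cre+ cells outside the set against unswitched cells include 0. With the set kept, the IGHJ2 difference was -17.7 points (-26.4 to -2.16), with 27 of the 35 IGHJ2 cells in the set. In the Cre- library the intervals within each J gene lie above 0 for IGHJ1, IGHJ3 and IGHJ4, on 4, 4 and 6 IgG1 cells. IGHJ2 went the other way there, with 12.5% (1 of 8) against 29.5%. When 12 bases of J were compared in place of 9, the sign of the difference between the libraries over all IgG1 cells turned. The shares were 80% of Cre+ and 68.2% of Cre- IgG1 cells. At 12 bases unswitched cells had 36.7% (Cre+) and 35.2% (Cre-), and IgG2b cells 53.0% and 64.5%. Without the set the Cre+ IgG1 share was 60.7%, and the difference between the libraries, -7.47 points (-34.4 to 21.6), kept its sign. The 27 cells of the set have the same bases there and score alike, so the turn rests on a joint that they share. With 6 bases the shares were 9.09% of Cre+ IgG1 cells, 17.9% without the set, and 36.4% of Cre- IgG1 cells, beside 5.12% and 4.59% of unswitched cells.

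The IgG1 cells had more heavy-chain UMIs than unswitched cells at the median. The median was 15 in the Cre+ library (range 1 to 63) and 12.5 in the Cre- library (range 1 to 177), against 8 and 9 in unswitched cells of the same libraries. The other switched classes also had higher medians than unswitched cells, with 9.5 (Cre+) and 13 (Cre-) in IgG2b cells and 18.5 and 15 in IgA cells outside the largest lineage. Outside the set the Cre+ median was 15.5. Light-chain UMIs had medians of 51.5 in the Cre+ and 67 in the Cre- IgG1 cells, against 29 and 32 in unswitched cells. The ratio of light to heavy UMIs had a median of 3.30 in the Cre+ library, or 4.51 without the set, and 4.67 in the Cre- library.

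**Figure D4:**
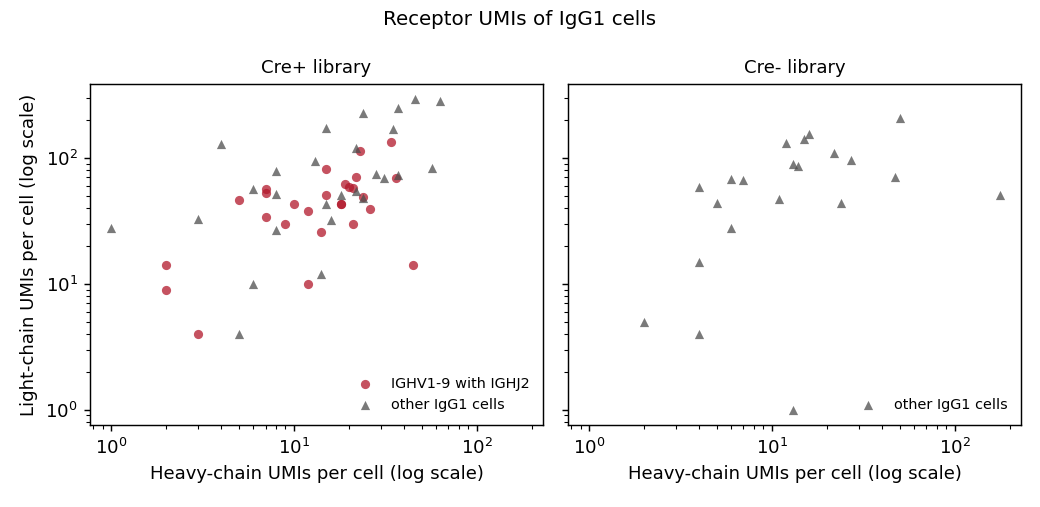
Light-chain UMIs (y axis, log scale) against heavy-chain UMIs (x axis, log scale) of each IgG1 cell with a light chain, Cre+ left and Cre- right, with IGHV1-9 with IGHJ2 cells as red circles and other cells as grey triangles. The red cells lie among the others, between 2 and 45 heavy-chain UMIs, and 1 Cre- cell stands at 177 heavy-chain UMIs.

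Cells with very high receptor transcript counts, as antibody-secreting cells have, were rare among IgG1 cells. At 100 or more heavy-chain UMIs there were 0 of 55 Cre+ IgG1 cells, which allows up to 5.45%, and 1 of 22 Cre- IgG1 cells, an IGHV2-5 with IGHJ2 cell with 177 heavy-chain and 51 light-chain UMIs. IgG2b cells reached that level in 12 of 100 Cre+ and 7 of 93 Cre- cases, with maxima of 3081 and 7068 UMIs. Unswitched cells reached it in 0.412% (Cre+) and 0.397% (Cre-) of cases. The IgG1 minus unswitched intervals, -0.719 to 6.08 (Cre+) and -0.297 to 22.4 points (Cre-), include 0. A difference from unswitched cells in either direction was not detectable with these cell numbers. In the Cre+ library the IgG1 minus IgG2b difference was -12 points (-20.02 to -3.40), and without the IGHV1-9 with IGHJ2 set its interval was -20.02 to 1.57. In the Cre- library it was -2.98 points (-11.6 to 15.9), and the Cre+ difference between IgG1 and IgA cells outside the largest lineage was -6.49 points (-11.6 to 0.801), both with intervals that include 0. Gene expression of the cells was not used here, so no cell was assigned to a state.

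**Figure D5:**
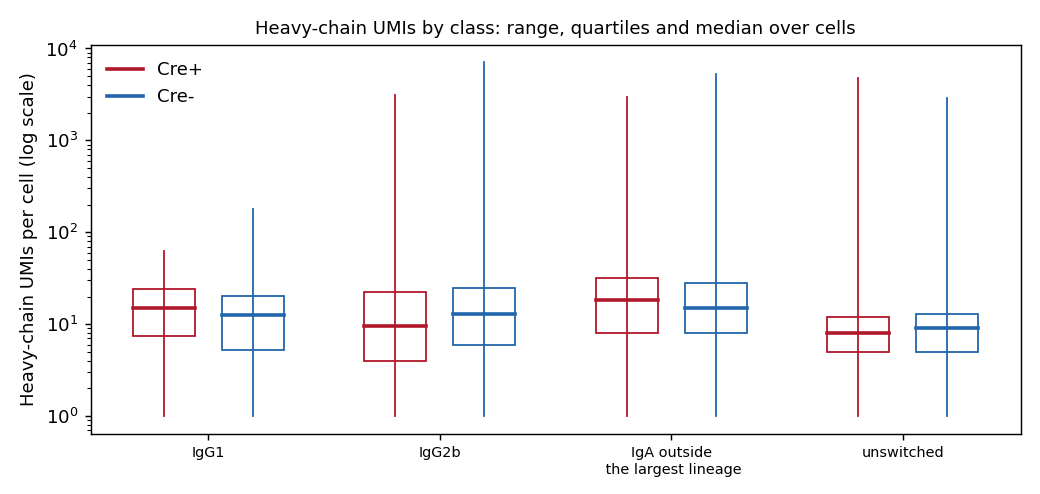
Heavy-chain UMIs per cell (y axis, log scale) by class, Cre+ in red left of Cre- in blue; lines give the range, boxes the quartiles and thick bars the median over cells. IgG1 cells end at 63 and 177 UMIs, while IgG2b cells reach 3081 and 7068.

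Gene use outside the set was spread over many V genes. The 55 Cre+ IgG1 cells used 18 IGHV genes and the 22 Cre- cells 15. Genes with 3 or more IgG1 cells over both libraries, besides IGHV1-9, IGHV1-12 and IGHV1-55, were IGHV1-26 with 2 Cre+ and 1 Cre- cells, IGHV1-72 with 1 and 2, and IGHV5-9 with 1 and 2. The IGHV1 family took 47 of 55 Cre+ cells, or 20 of 28 without the set, and 13 of 22 Cre- cells.

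Among D genes, IGHD1-1 was assigned in 33 of the 50 Cre+ IgG1 cells with a D call, of which the set holds all but 6, and in 3 of 18 Cre- cells. Outside the set, D genes of the IGHD2 family were assigned in both libraries, to 65.2% of Cre+ cells (15 of 23) and 66.7% of Cre- cells (12 of 18). In unswitched cells the IGHD2 share was 39.5% (Cre+) and 43.7% (Cre-). IgG1 cells outside the set exceeded this by 25.7 points in the Cre+ library (3.14 to 44.2). In the Cre- library the excess was 22.9 points, and its interval of -2.82 to 43 includes 0. Both intervals treat related cells as independent. The Cre+ lineages of IGHV1-12 with IGHJ2 (IGHD2-4) and with IGHJ4 (IGHD2-3) held 3 IgG1 cells each. The Cre- lineage of IGHV1-55 with IGHJ2 (IGHD2-3) also held 3. The Cre+ cells outside the set differed by 19.1 points from IgG2b cells (-5.87 to 40.3) and by 18.4 points from IgA cells outside the largest lineage (-5.86 to 38.9), and both intervals include 0. Over all Cre+ IgG1 cells with a D call the IGHD2 share was 30% (15 of 50), which differed from unswitched cells by -9.52 points (-21.8 to 5.21). Single D genes with 3 or more IgG1 cells were IGHD2-3 (7 Cre+ and 3 Cre-), IGHD2-4 (5 and 4), IGHD2-6 (3 and 2) and IGHD4-1 (1 and 2).

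IGHJ2 was used by 63.6% of Cre+ IgG1 cells (35 of 55) and 36.4% of Cre- cells (8 of 22), and by 28.6% of Cre+ cells (8 of 28) without the set, where the order of the libraries turned. IGHJ1, IGHJ3 and IGHJ4 were used by 3, 8 and 9 Cre+ cells and by 4, 4 and 6 Cre- cells. Light chains were kappa in all IgG1 cells that had one. Lambda was found in 0 of 54 Cre+ cells and 0 of 21 Cre- cells, which allows up to 5.56% and 14.3%, and unswitched cells had 4.98% and 5.09%, so a lower share in IgG1 was not detectable with these cell numbers. Among kappa genes, IGKV1-110 was used by 28 Cre+ and 2 Cre- cells, and by 2 Cre+ cells outside the set. IGKV1-117 was used by 3 Cre+ and 4 Cre- cells, IGKV5-43 by 5 and 1, and IGKV13-84 by 3 and 0.

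The heavy CDR3 had a median length of 14 residues in Cre+ IgG1 cells, 13.5 without the set, and 14.5 in Cre- IgG1 cells. Tyrosine, common in mouse heavy CDR3s, made up 26.4% of the CDR3 residues between the first cysteine and the last tryptophan in Cre+ IgG1 cells, 33.0% within the IGHV1-9 with IGHJ2 set and 19.7% outside it, and 16.4% in Cre- IgG1 cells. Unswitched cells had 20% (Cre+) and 20.3% (Cre-). No heavy chain of an IgG1 cell, taken as V gene, J gene and CDR3 protein, was found in any cell of the other library.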

How the data were processed

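The contig tables, deposited by the authors, list per the file headers each assembled receptor contig with its genes, CDR3 and the count of reads and of UMIs; these counts were used as deposited. Cell Ranger and the GRCm38 build are named, with no role or version, in the submitters' processing notes. The Cre+ library held 3748 barcodes and 355258 UMIs from 22003594 reads, the Cre- library 3245 barcodes and 355985 UMIs from 19982305 reads. Barcodes with 2 or more productive heavy chains (145 Cre+, 83 Cre-) were left out, and no doublet caller was run. The light chain was the productive chain with the most UMIs. Lineages were joined within a library by single linkage. The joining and the mismatch count were tested on simulated sequences with an untrimmed J end. That test therefore does not cover mismatches that trimming of J gives. Limits for a count of 0 are 3 cells of the total. Named were all constant and IGHJ genes and IGHV families, each gene with 3 or more IgG1 cells, and each lineage of 2 or more cells with an IgG1 cell. The members, lists and rules were chosen with earlier results of these data known. Alternatives were other rules for barcodes, UMIs, light chains, lineages and bases of J. Coordinates come from a RefSeq table of GRCm38.p6, which held 26 of 26 IGHV names. Python 3.11.15, pandas 2.3.3, numpy 2.4.6 and scipy 1.17.1 were used.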

Additional observations from a re-analysis of the deposited data

Results flagged for a closer look

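IGHG1 chains were also present in contigs that the main counts leave out, and no difference between the libraries was tested. Heavy chains of the IGHV1-9 with IGHJ2 set lay in contigs not full length in 5 Cre+ barcodes and 0 Cre- barcodes. IGHV1-12 with IGHJ3 chains with IGHG1 lay in such contigs in 2 Cre+ and 0 Cre- barcodes. A productive IGHG1 chain stood beside another productive heavy chain in 9 of 145 Cre+ barcodes with 2 or more heavy chains, 6 of them with IGHV1-9 and IGHJ2, and in 0 of 83 such Cre- barcodes. Over all V genes such contigs were found in both libraries: of the heavy-chain contigs with IGHG1, 12 of 77 Cre+ and 3 of 25 Cre- contigs were not productive, and 8 and 2 were not full length.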

How the results depend on the processing

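No paired analysis was possible because there was 1 library per genotype. The Cre+ minus Cre- difference in IgG1 share of cells, 0.930 points, was 0.116 without IGHV1-9 plus IGHJ2 cells and 0.0114 with each lineage and constant gene counted once; among IgG cells, 15.7 points became 2.07 and 1.85. Under the same alternatives the Cre+ share with a J mismatch became 32.1% and 30.4%, the Cre+ IGHJ2 share became 28.6% and 30.4%, and the IGHJ2 difference turned to -7.79 and -2.90 points. The median Cre+ heavy-chain UMIs became 22 with each lineage and constant gene counted once. There the cell with the most UMIs stood for each lineage, so a higher median follows from that choice. With 12 bases of J the mismatch shares were 80% in Cre+ and 68.2% in Cre- cells, and the difference turned to 11.8 points; a comparison of 12 bases without the set, added after the data were seen, gave 60.7% and 68.2%. By the authors' clonotypes 52.7% of Cre+ and 0% of Cre- IgG1 cells were in groups of 2 or more, and without the set the Cre+ lineage share was 53.6%. The Cre+ CDR3 length was 13.5 residues without the set and 13.7 as a mean. Requiring a shared light V gene gave lineage shares of 67.3% and 27.3%, and 6 bases of J gave mismatch shares of 9.09% and 36.4%, in Cre+ and Cre- IgG1 cells. The cell numbers, 55 Cre+ and 22 Cre-, limit every comparison, and variation between mice was not measured.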
